A study of Mus musculus with 4 samples.

Results

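Collagens are the main structural proteins of the extracellular matrix, and their genes were followed in colon tumours of mice with and without the kinase GSK3B in the intestinal epithelium. The files hold 44 symbols of the form Col, number, a, number, each the gene of a collagen alpha chain, out of 26214 gene symbols. Of these 44, 39 passed the filter on low counts and were tested, 4 had between 2 and 24 counts in all 4 libraries together, and 1 (Col26a1) had 0. Collagen genes took 0.355% to 0.516% of all counts of a library.

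The study gave 4 libraries of polyadenylated RNA from colon cancer tissue of mice given the carcinogen azoxymethane and the colitis-inducing agent dextran sulfate sodium. The 2 groups are Gsk3b (IEC+/+) and Gsk3b (IEC-/-), with 2 libraries each, where IEC stands for the intestinal epithelial cells and the sign for the Gsk3b state of those cells. Both groups share the carcinogen and colitis treatment. The sources used here do not give strain, age, sex, the Cre driver of the deletion or any pooling of animals. Nor do they say whether replicates are separate animals, and the p-values therefore describe the spread among these libraries, which may be technical.

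Total counts were 25472503 to 27218515 per library. Gsk3b itself had 170, 157, 152 and 149 CPM (read counts scaled by TMM-adjusted library size) in IEC+/+ replicates 1 and 2 and IEC-/- replicates 1 and 2. Its log2 fold change was -0.12 (SE 0.12, edgeR quasi-likelihood adjusted p = 0.681), so its level in whole tumour tissue does not check the labels, and the groups are the libraries labelled IEC+/+ and IEC-/-. Epithelial markers were abundant in each library, with Epcam at 1045 to 1444 CPM and Krt8 at 1423 to 3302 CPM. These 2 genes show epithelium and do not check which organ it came from. IEC-/- replicate 2 stood apart in squamous epithelial markers, which summed to 2666 CPM there and to 196, 129 and 39.5 CPM in IEC+/+ replicates 1 and 2 and IEC-/- replicate 1. IEC+/+ replicate 1 stood apart in smooth muscle markers, with a sum of 509 CPM against 212 to 282 CPM in the other libraries. Pericyte markers summed to 215 to 271 CPM and mesothelial markers to at most 16.9 CPM, with 0 called in either list.

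Collagen alpha chains wind into helical trimers, which are secreted and assembled in forms that differ by class. Fibrillar collagens (types I, II, III, V, XI, XXIV and XXVII) build the tensile fibrils of connective tissue, type IV builds the sheet of basement membranes, and type VI forms beaded filaments around cells. FACIT collagens decorate fibrils, types VIII and X form hexagonal networks, type VII anchors squamous epithelium to the underlying matrix, transmembrane collagens sit in the cell membrane, and multiplexins (types XV and XVIII) lie in basement membrane zones. In intestine and in its tumours, fibroblasts are the main source of fibrillar collagen, while endothelial, muscle and epithelial cells also make basement membrane collagen.

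The stretches before the starts of 3 members described below are shown: Col3a1, the most abundant collagen here, Col7a1, highest in IEC-/- replicate 2, and Col10a1, lower in each IEC-/- library. No result below uses these letters. Each is the 250 bases that end just before the RefSeq gene on GRCm38.p6, 5′ to 3′, with capitals where a searched motif stands on either strand. The motifs were the TATA box TATAAA, the CCAAT box CCAAT and the GC box GGGCGG.
Col3a1 (chr1:45311288-45311537, plus strand): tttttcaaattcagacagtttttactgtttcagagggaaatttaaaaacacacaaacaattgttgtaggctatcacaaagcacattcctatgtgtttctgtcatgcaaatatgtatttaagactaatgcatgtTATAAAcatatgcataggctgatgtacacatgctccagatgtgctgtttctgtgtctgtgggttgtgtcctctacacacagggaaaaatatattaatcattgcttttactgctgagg
Col7a1 (chr9:108953336-108953585, plus strand): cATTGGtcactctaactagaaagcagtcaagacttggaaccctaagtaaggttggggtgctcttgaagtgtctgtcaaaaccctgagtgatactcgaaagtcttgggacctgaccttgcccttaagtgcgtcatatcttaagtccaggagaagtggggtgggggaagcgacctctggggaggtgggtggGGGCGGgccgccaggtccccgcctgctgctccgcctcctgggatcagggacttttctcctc
Col10a1 (chr10:34389731-34389980, plus strand): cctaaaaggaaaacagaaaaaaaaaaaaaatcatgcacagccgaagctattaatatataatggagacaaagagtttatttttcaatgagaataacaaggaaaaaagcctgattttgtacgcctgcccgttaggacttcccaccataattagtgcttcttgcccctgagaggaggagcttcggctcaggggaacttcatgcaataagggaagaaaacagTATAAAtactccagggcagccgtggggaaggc
The Col3a1 and Col10a1 windows hold TATAAA, in Col10a1 starting 32 bases before the gene. The Col7a1 window holds GGGCGG and, on the opposite strand, CCAAT. The RefSeq promoter table places starts of its own, and of its 38 windows for 35 collagen genes 25 reach into the RefSeq span of their gene. Of these 38 windows, 13.2% held TATAAA, 34.2% CCAAT and 57.9% GGGCGG, against 12.4%, 33.8% and 32.7% of all 32851 windows. None of these motifs contains another, and a match is a description of the letters only.

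The collagen transcripts of these tumours were mostly those of types III, I and IV. Averaged over the 4 libraries and given per kilobase of coding length, Col3a1 had 202 CPM per kb, Col1a1 132, Col1a2 117, Col4a1 87.1 and Col4a2 59.9. Col6a1, Col18a1, Col6a2, Col5a2 and Col5a1 followed with 50.4, 48.6, 44.0, 35.1 and 22.3 CPM per kb. Levels of neighbours in this order overlapped between libraries in part: Col1a1 had 106 to 177 CPM per kb and Col1a2 90.8 to 165. Fibrillar genes together had 3216 and 1982 CPM (IEC+/+ replicates) against 2112 and 1849 CPM (IEC-/- replicates). At the other end, the chains of cartilage type II and of the glomerular form of type IV were near the detection limit, with Col2a1 at 0.227 to 1.03 CPM and Col4a3 at 0.232 to 1.01 CPM.

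**Figure D1:**
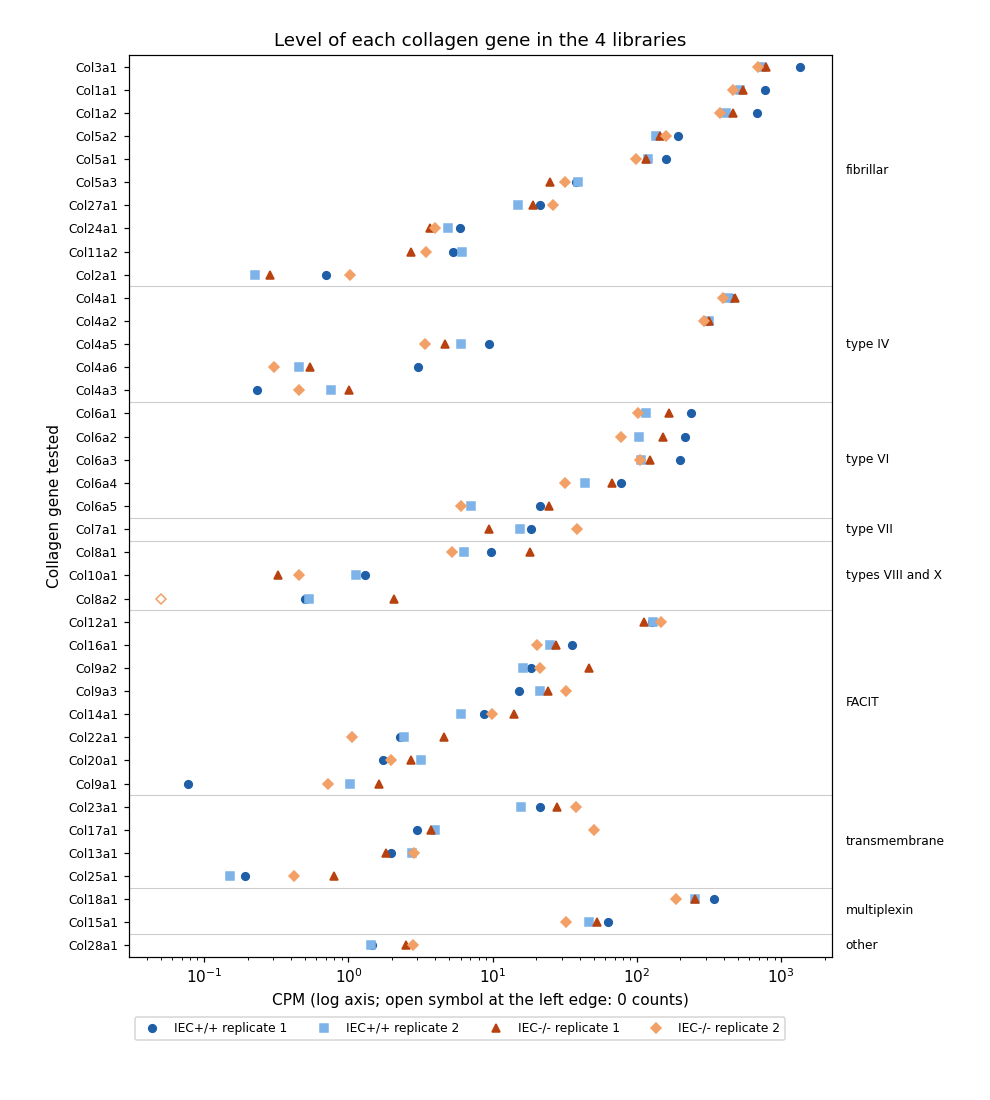
Level of each of the 39 collagen genes tested in CPM on a log axis, 1 symbol per library, grouped by collagen class. Levels run from 0 counts (Col8a2 in IEC-/- replicate 2) to 1341 CPM (Col3a1 in IEC+/+ replicate 1), and the groups overlap for 26 of the 39 genes.

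No collagen gene passed the test between the groups. By the quasi-likelihood test of edgeR, with Benjamini-Hochberg adjustment over 16637 genes, 0 of 39 had an adjusted p under 0.05. The lowest collagen value was 0.190, and 0.884% of all genes were called, 0.120% higher and 0.763% lower in IEC-/-. At an unadjusted p under 0.05 there were 8 (20.5%), 4 higher and 4 lower in IEC-/-. Over all genes tested this share was 16.6%, with 7.50% higher and 9.12% lower. Means were higher in IEC-/- for 17 and lower for 22, while 51.5% of all genes were higher and 48.5% lower. The median log2 fold change was -0.04 for collagens and 0.01 for all genes. The 2 IEC-/- libraries lay wholly above or wholly below the 2 IEC+/+ libraries for 13 collagens (33.3%), 6 above and 7 below, against 48.0% of all genes (24.0% above and 24.1% below).

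Libraries of the same group differed more in collagens than in the typical gene. Between IEC+/+ replicates the median absolute difference of log2(CPM + 0.5) was 0.47 over the 39 collagens and 0.19 over all genes tested, and between IEC-/- replicates 0.43 and 0.23. Replicate 1 was the higher IEC+/+ library for 27 of 39. By class, the median log2 fold change was negative in fibrillar (-0.38, 10 genes tested), type VI (-0.40, 5 genes) and multiplexin genes (-0.40, 2 genes). It was near 0 in type IV (-0.04, 5 genes). It was positive in FACIT (0.45, 8 genes), types VIII and X (0.54, 3 genes) and transmembrane genes (1.31, 4 genes). The type VIII and X median was the value of Col8a1, and with a library left out that median ranged from -1.42 to 1.17. The transmembrane median lay between Col23a1 (0.83) and Col25a1 (1.79), the latter with 42 counts in all. With library sizes scaled by total counts alone, the median of all genes lay at 0.12.

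**Figure D2:**
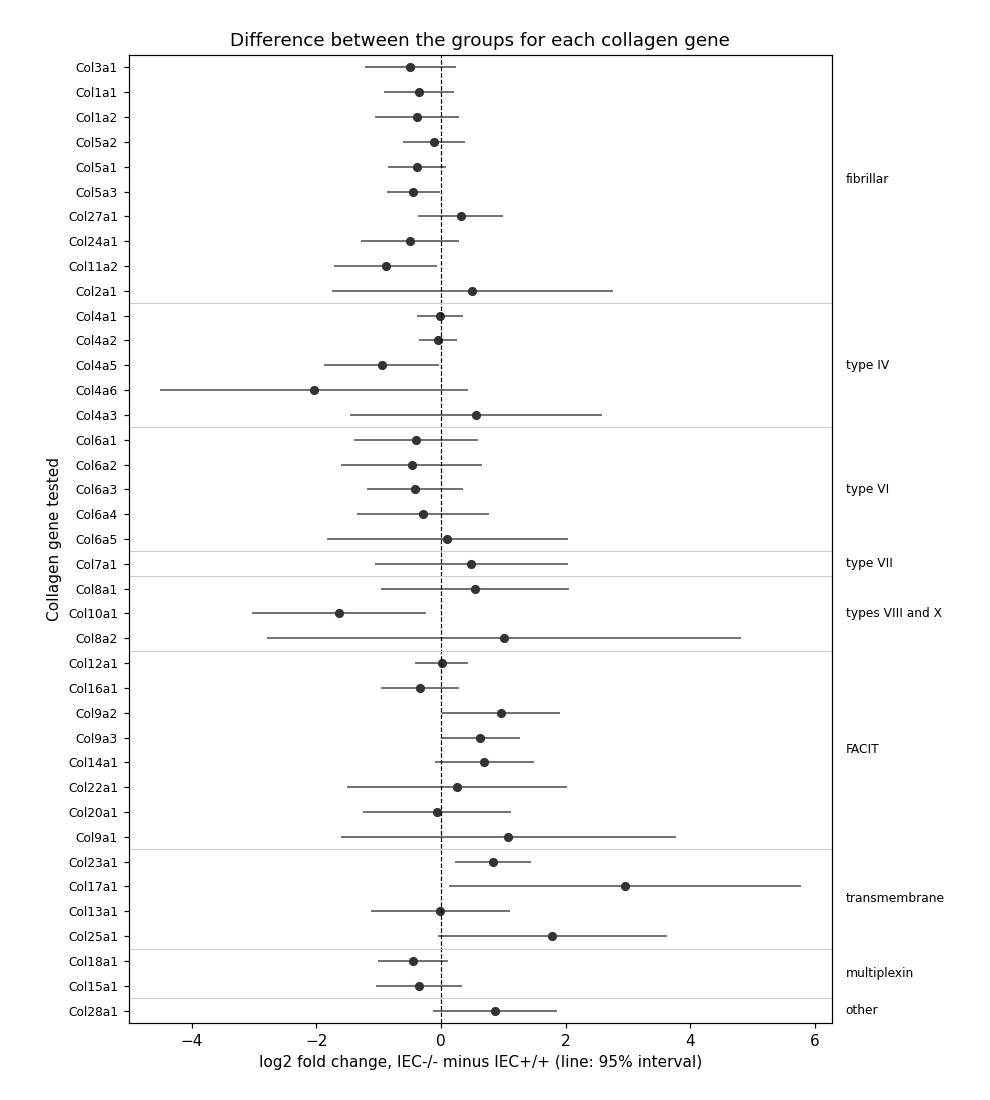
Log2 fold change of each collagen gene tested, IEC-/- minus IEC+/+, as a point with a line for its 95% interval, grouped by class. The largest positive value is 2.95 (Col17a1) and the largest negative value is -2.04 (Col4a6), and both have wide intervals.

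Fibrillar collagens had lower means in IEC-/- for 8 of 10 genes tested, and 0 passed. Col3a1 (chromosome 1, 45311538 to 45349706, GRCm38), the chain of type III collagen that is rich in elastic, pliable tissue, had 1341 and 733 CPM (IEC+/+ replicates) against 788 and 691 CPM (IEC-/- replicates). IEC+/+ replicate 1 was thus far above the other 3 libraries, and IEC-/- replicate 1 lay between the IEC+/+ libraries. In mean and SD over 2 libraries, IEC+/+ stood at 1037 ± 429 CPM and IEC-/- at 739 ± 69.3 CPM. The log2 fold change was -0.49 (SE 0.29, edgeR adjusted p = 0.471). Col1a1 and Col1a2, the chains of type I collagen, had the same pattern. Col1a1 had 771 and 517 CPM (IEC+/+ replicates) against 547 and 462 CPM (IEC-/- replicates) (log2 fold change -0.35, SE 0.22, edgeR adjusted p = 0.490). Col1a2 had 681 and 413 CPM (IEC+/+ replicates) against 465 and 374 CPM (IEC-/- replicates) (-0.38, SE 0.26, edgeR adjusted p = 0.533). In tissue RNA, fewer cells of a type and less RNA per cell cannot be told apart.

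These differences rested on IEC+/+ replicate 1. Without that library the median log2 fold change of the fibrillar genes was -0.02, and those of Col3a1, Col1a2 and Col5a2 were 0.01, 0.02 and 0.16. In the same library fibroblast markers summed to 821 CPM, against 590, 627 and 583 CPM in IEC+/+ replicate 2 and IEC-/- replicates 1 and 2. Dcn alone gave 420 CPM of the 821. Single markers were divided: Dcn, Pdgfra, Dpt, Lum and Mfap5 were highest in IEC+/+ replicate 1. Pdpn was highest in IEC+/+ replicate 2, and Thy1, Fap, Fbln1 and Fbln2 were highest in an IEC-/- library. All 10 fibroblast markers were tested and 0 were called, with a median log2 fold change of -0.25. Smooth muscle markers also had their highest sum in IEC+/+ replicate 1, 509 CPM, with 0 of 9 called and Myh11 at 97.3 CPM against 27.4 to 45.2 CPM. Smtn alone of that list was highest elsewhere, with 39.3 CPM in IEC-/- replicate 1 and 37.7 CPM in IEC+/+ replicate 1. The part of these cell types in the collagen difference was not tested.

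The minor fibrillar chains included members less tied to that library. Col11a2, a chain of type XI collagen, which sets fibril diameter in cartilage and other tissues, had the smallest p of the class. It had 5.33 and 6.13 CPM (IEC+/+ replicates) against 2.73 and 3.47 CPM (IEC-/- replicates), so the groups did not overlap (log2 fold change -0.88, SE 0.32, edgeR adjusted p = 0.268). Col5a3, a less common chain of type V collagen, had 37.5 and 38.9 CPM (IEC+/+ replicates) against 24.8 and 31.6 CPM (IEC-/- replicates) (-0.44, SE 0.17, edgeR adjusted p = 0.278). Col5a1, whose type V trimers start the assembly of type I fibrils, had 159 and 119 CPM against 115 and 98.4 CPM (-0.38, SE 0.18, edgeR adjusted p = 0.374). It was thus highest in IEC+/+ replicate 1, and its lack of overlap rested on the small gap between 119 and 115 CPM. Its partner Col5a2 overlapped between groups at 135 to 193 CPM. Col24a1 had 3.70 to 5.98 CPM with groups that did not overlap (-0.50). Col27a1 and Col2a1 had positive values of 0.32 and 0.51, and Col11a1 had 8 counts in all and was not tested.

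The ratios of chains within the type I and type IV trimers differed little between libraries. Per kilobase of coding length, Col1a1 stood at 1.07 to 1.18 times Col1a2 in the 4 libraries. Col3a1 stood at 1.73 times Col1a1 in IEC+/+ replicate 1 and at 1.41 to 1.48 times in the others, so type III stood somewhat further out than type I in that library. Col4a1 stood at 1.38 to 1.54 times Col4a2. Of the other ratios taken, Col6a1 stood at 1.10 to 1.33 times Col6a2 and Col18a1 at 3.68 to 4.40 times Col15a1. Col5a1 stood at 0.508 to 0.720 times Col5a2, Col6a3 at 0.233 to 0.324 times Col6a1 and Col9a2 at 0.650 to 1.89 times Col9a3. Ratios of level to coding length carry the counting method, which was not given, and are set side by side across libraries only.

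**Figure D3:**
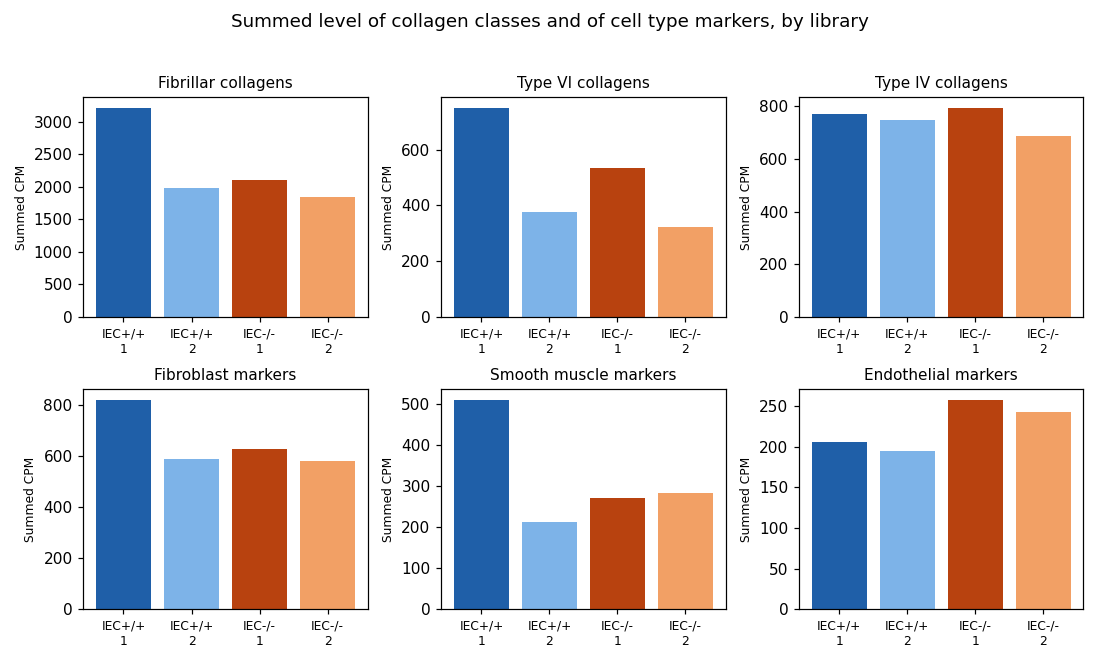
Summed CPM per library of fibrillar, type VI and type IV collagens (top) and of fibroblast, smooth muscle and endothelial markers (bottom), 1 bar per library. IEC+/+ replicate 1 is highest for fibrillar (3216) and type VI collagens (751) and for fibroblast (821) and smooth muscle markers (509), whereas type IV sums stay between 687 and 796.

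The abundant basement membrane chains were nearly level across the libraries. Col4a1 and Col4a2, which form the common type IV trimer, had levels that overlapped between the groups. Col4a1 had 451 and 426 CPM (IEC+/+ replicates) against 475 and 392 CPM (IEC-/- replicates) (log2 fold change -0.02, SE 0.14, edgeR adjusted p = 0.974), and the 95% interval of its IEC-/- to IEC+/+ ratio was 0.777 to 1.26. Col4a2 had 306 and 316 CPM (IEC+/+ replicates) against 314 and 290 CPM (IEC-/- replicates) (-0.04, SE 0.12, edgeR adjusted p = 0.908), with an interval of 0.796 to 1.19. With total counts alone as scale their values were 0.09 and 0.07, so no direction is given for them. Markers of endothelial cells, which rest on such a sheet, summed to 206 and 195 CPM (IEC+/+ replicates) against 258 and 243 CPM (IEC-/- replicates), with 0 of 8 called and 8 of 8 means higher in IEC-/-.

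The chains of the other type IV trimers were scarce. Col4a5 had 9.49 and 6.02 CPM (IEC+/+ replicates) against 4.64 and 3.39 CPM (IEC-/- replicates). The groups did not overlap, and the gene did not pass (log2 fold change -0.95, SE 0.36, edgeR adjusted p = 0.285). Its head-to-head neighbour Col4a6, whose trimers with Col4a5 surround smooth muscle, had 79 counts in IEC+/+ replicate 1 and 12, 15 and 8 counts in the other libraries. That difference followed 1 library (log2 fold change -2.04, SE 0.98, edgeR adjusted p = 0.386), the library in which smooth muscle markers were highest. Whether muscle content bears on it was not tested. Col4a3 had 6 to 28 counts per library and Col4a4 16 counts in all, the latter not tested.

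Type VI collagens moved together between libraries rather than between groups. Col6a1, Col6a2 and Col6a3, the chains of the common type VI trimer, were high in replicate 1 of each group. Col6a1 had 238 and 115 CPM (IEC+/+ replicates) against 165 and 102 CPM (IEC-/- replicates). Col6a2 had 214 and 103 CPM (IEC+/+ replicates) against 152 and 76.9 CPM (IEC-/- replicates). Col6a3 had 200 and 106 CPM (IEC+/+ replicates) against 124 and 106 CPM (IEC-/- replicates). All 5 type VI genes tested had more in replicate 1 than in replicate 2 within each group, and all 5 overlapped between the groups. Replicate numbers have no stated order or pairing, so this is a property of those libraries.

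Their group differences were small beside this spread. The log2 fold changes of Col6a1, Col6a2 and Col6a3 were -0.40 (SE 0.39), -0.47 (SE 0.44) and -0.42 (SE 0.30), with edgeR adjusted p-values of 0.676, 0.666 and 0.559. Without IEC+/+ replicate 1 they were 0.21, 0.15 and 0.11. Col6a4 and Col6a5, which encode alternative chains that can take the place of the Col6a3 chain, had 31.8 to 77.2 and 6.06 to 24.5 CPM. Col6a6 had 2 counts in all. Col6a1 and Col6a2 lie 85161 bases apart on the same strand of chromosome 10, and Col6a4, Col6a5 and Col6a6 follow each other on chromosome 9 (105689417 to 106096828).

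Transmembrane collagens held the collagen with the smallest p, Col23a1 (chromosome 11, 51289679 to 51583925). It encodes a membrane-bound collagen that can be shed from the cell surface. Col23a1 had 21.4 and 15.7 CPM (IEC+/+ replicates) against 28.1 and 38.0 CPM (IEC-/- replicates), so each IEC-/- library was above each IEC+/+ library. In mean and SD over 2 libraries this was 18.5 ± 4.02 CPM against 33.0 ± 6.96 CPM. The log2 fold change was 0.83 (SE 0.24, edgeR adjusted p = 0.190), and the 95% interval of the ratio was 1.18 to 2.69. DESeq2 called it (adjusted p = 0.0393) and no other collagen, where DESeq2 called 8.49% of the 15346 genes to which it gave an adjusted p. The edgeR exact test and limma-voom called 0 collagens, where they called 5.22% and 0.469% of all genes.

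Col17a1 was high in a single library. The gene (chromosome 19, 47646341 to 47692042) encodes the hemidesmosomal collagen that fastens basal squamous cells to their basement membrane. It had 2.97 and 3.97 CPM in IEC+/+, 3.74 CPM in IEC-/- replicate 1 and 50.1 CPM in IEC-/- replicate 2. The groups therefore overlapped, and the log2 fold change of 2.95 (SE 1.12, edgeR adjusted p = 0.283) described that library. Col7a1, the anchoring fibril collagen of squamous epithelium (chromosome 9, 108953586 to 108984875), was also highest there. It had 18.5 and 15.4 CPM (IEC+/+ replicates) against 9.42 and 38.2 CPM (IEC-/- replicates) (0.49, SE 0.61, edgeR adjusted p = 0.759). With IEC-/- replicate 2 as the sole IEC-/- library, whose spread is then taken from the IEC+/+ pair, both were called higher (edgeR adjusted p = 0.00309 and 0.0429), where 729 genes were called in all. Without IEC-/- replicate 2 the log2 fold changes were 0.10 for Col17a1 and -0.85 for Col7a1, and neither was called.

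Squamous epithelial markers were high in that same library. Krt5, a basal keratin, had 795 CPM in IEC-/- replicate 2, 10.4 CPM in IEC+/+ replicate 2, 0.193 CPM in IEC+/+ replicate 1 and 0 counts in IEC-/- replicate 1. Trp63, the basal cell transcription factor, had 34.0 CPM there and at most 0.870 CPM elsewhere. Krt14, Krt13, Krt6a and Dsg3 had 863, 279, 587 and 54.2 CPM there, and these 6 markers were highest in that library, whereas Krt15 was highest in IEC+/+ replicate 1 (63.7 CPM against 52.7). All 7 markers were tested and 0 were called. Their part in the Col17a1 and Col7a1 levels was not tested.

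**Figure D4:**
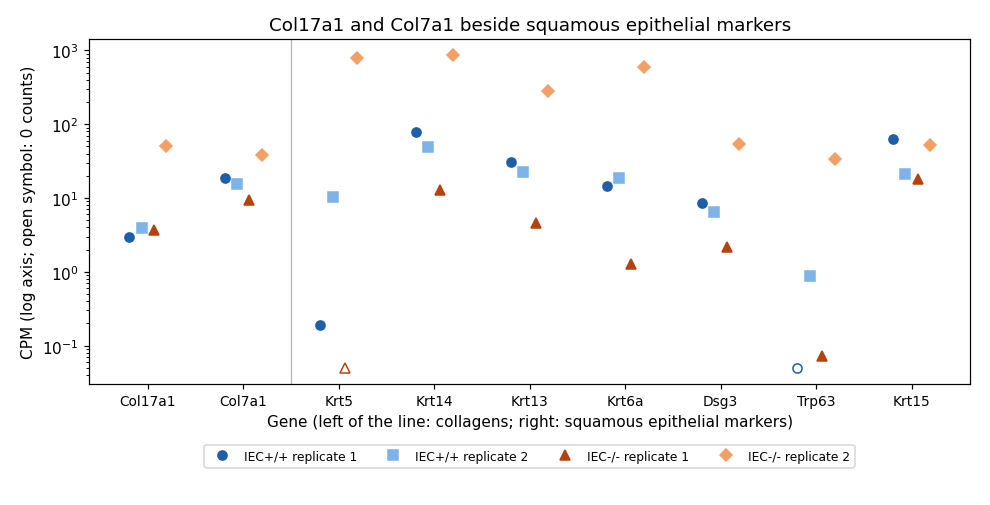
CPM on a log axis of Col17a1 and Col7a1 and of 7 squamous epithelial markers, 1 symbol per library, with open symbols for 0 counts. IEC-/- replicate 2 is the highest library for both collagens (50.1 and 38.2 CPM) and for each marker except Krt15.

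The other transmembrane collagens were scarce. Col25a1, a collagen found mainly in neurons, had 5 and 4 counts in IEC+/+ and 22 and 11 counts in IEC-/- (log2 fold change 1.79, SE 0.73, edgeR adjusted p = 0.308). Col13a1, known from neuromuscular junctions and focal adhesions, had 1.83 to 2.86 CPM with overlapping groups. Glial and neuronal markers were scarce as well, with sums of 6.83 and 8.93 CPM against 10.6 and 14.6 CPM. Of these 8 markers 3 were tested and 0 called, with 3 of 3 means higher in IEC-/- (median log2 fold change 0.68). For 2 of them the groups did not overlap, where 48.0% of all genes tested did not overlap. The part of glial and neuronal cells in the levels of Col25a1 and of the nerve sheath collagen Col28a1 was not tested.

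FACIT collagens had higher means in IEC-/- for 6 of 8 genes tested. The type IX chains Col9a2 and Col9a3, known from cartilage, were among the collagens whose groups did not overlap. Col9a2 (chromosome 4) had 18.5 and 16.2 CPM (IEC+/+ replicates) against 46.4 and 21.3 CPM (IEC-/- replicates), so most of its difference came from IEC-/- replicate 1 (log2 fold change 0.96, SE 0.37, edgeR adjusted p = 0.290). Without IEC-/- replicate 2, when replicate 1 alone stands for IEC-/- and the spread comes from the IEC+/+ pair, it was called higher (edgeR adjusted p = 0.0191), among 567 genes called in all. Col9a3 (chromosome 2) had 15.2 and 21.3 CPM (IEC+/+ replicates) against 24.2 and 32.3 CPM (IEC-/- replicates) (0.63, SE 0.25, edgeR adjusted p = 0.294), and its annotated exons share 234 bases with those of Tcfl5 on the opposite strand, which had 4 to 13 counts per library. The third chain, Col9a1, had 2 to 45 counts per library. Of 7 chondrocyte and osteoblast markers 3 were tested and 0 called, and all 3 had higher means in IEC-/- (median log2 fold change 0.85). For Acan and Ibsp the higher mean came from IEC-/- replicate 1, and the groups overlapped. Ibsp had 1.04 and 0.454 CPM against 2.12 and 0.572 CPM, and Acan had 0 counts in IEC-/- replicate 2. Runx2, a transcription factor of bone and cartilage, measured 19.3 and 15.9 CPM against 28.3 and 48.6 CPM, without overlap (1.13, SE 0.29, edgeR adjusted p = 0.154). Acan stood at 1.11 CPM or less and Matn3 at 0 counts in 3 libraries, and the part of such cells in the type IX levels was not tested.

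Col12a1 and Col14a1, FACIT collagens that coat type I fibrils, differed in pattern. Col12a1, the most abundant of the class, had 127 and 128 CPM (IEC+/+ replicates) against 111 and 147 CPM (IEC-/- replicates) (log2 fold change 0.01, SE 0.16, edgeR adjusted p = 0.983). Its 95% interval of the ratio was 0.760 to 1.34. Col14a1 had 8.65 and 6.05 CPM (IEC+/+ replicates) against 14.0 and 9.91 CPM (IEC-/- replicates), without overlap (0.70, SE 0.31, edgeR adjusted p = 0.347). Col16a1 had 20.4 to 35.2 CPM (-0.33). Col20a1 and Col22a1 had 1.07 to 4.57 CPM with overlapping groups, and Col19a1, with 24 counts in all, was not tested.

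Among the hexagonal network collagens, Col10a1, the collagen of hypertrophic cartilage, was lower in each IEC-/- library. It had 34 and 30 counts in IEC+/+ and 9 and 12 counts in IEC-/- (log2 fold change -1.64, SE 0.55, edgeR adjusted p = 0.243). Col10a1 lies wholly within Nt5dc1 on the opposite strand of chromosome 10 (34389981 to 34397085), with 18 bases of shared exon. Nt5dc1 had 385 to 568 counts per library (log2 fold change 0.12, SE 0.27). Reads in the shared exon bases, or from unspliced Nt5dc1 RNA, cannot be told apart from Col10a1 reads without strand. Col8a1, known from vessel walls, had 9.73 and 6.32 CPM (IEC+/+ replicates) against 18.1 and 5.26 CPM (IEC-/- replicates) (0.54, SE 0.60, edgeR adjusted p = 0.717), the IEC-/- libraries being the extremes. Col8a2 had 58 counts in IEC-/- replicate 1, 0 in IEC-/- replicate 2, which allows up to 0.114 CPM by counting error alone, and 13 and 14 in IEC+/+.

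The multiplexins had lower means in IEC-/-. Col18a1, a basement membrane proteoglycan core whose end fragment is endostatin, had 343 and 253 CPM (IEC+/+ replicates) against 253 and 185 CPM (IEC-/- replicates). IEC+/+ replicate 2 and IEC-/- replicate 1 were nearly equal (253.4 and 252.7 CPM), so the lack of overlap rested on a very small gap (log2 fold change -0.45, SE 0.22, edgeR adjusted p = 0.394). Col15a1 had 62.5 and 46.6 CPM against 52.9 and 32.4 CPM (-0.35, SE 0.27, edgeR adjusted p = 0.581). Col28a1, a collagen of peripheral nerve sheaths, was low and even within groups, with 1.47 and 1.44 CPM (IEC+/+ replicates) against 2.52 and 2.78 CPM (IEC-/- replicates) (0.87, SE 0.39, edgeR adjusted p = 0.356).

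Neighbouring collagen genes were set side by side across the libraries. Within 100 kb of each other lay 8 adjacent pairs, 3 of them head to head (Col4a1 with Col4a2, Col4a3 with Col4a4, Col4a5 with Col4a6). Col4a1 and Col4a2, whose RefSeq spans on chromosome 8 overlap by 85 bases, were both even across libraries, whereas Col4a5 and Col4a6, 1274 bases apart on chromosome X, were both highest in IEC+/+ replicate 1. Col3a1 and Col5a2, tail to tail on chromosome 1 with 24624 bases between them, were both highest in IEC+/+ replicate 1. That library was also highest for collagens outside these pairs, among them Col1a1 and Col1a2, so the pattern is not particular to neighbours. These are descriptions of 4 libraries, with no test.

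Genes that make and modify procollagen were mostly lower in mean in IEC-/-, without passing. Of 20 genes for hydroxylation and folding, 0 passed and 15 had lower means, against 48.5% of all genes, with a median of -0.16. Serpinh1, the collagen chaperone, had 207 and 194 CPM (IEC+/+ replicates) against 151 and 108 CPM (IEC-/- replicates) (log2 fold change -0.63, SE 0.19, edgeR adjusted p = 0.197). P4ha1, a subunit of prolyl 4-hydroxylase, had 41.2 and 55.8 CPM against 31.7 and 25.0 CPM (-0.78, SE 0.21, edgeR adjusted p = 0.164). The abundant P4hb and Ppib had values of -0.21 and -0.03. Of 12 genes tested for propeptide cleavage and crosslinking 0 passed, with 6 higher and 6 lower means. Lox, which crosslinks fibrils, had 0.43 (edgeR adjusted p = 0.195), Loxl2 -0.36 and the transglutaminase gene Tgm2 -0.49.

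Partners of the fibrils and receptors included 2 genes that passed, 1 of 9 tested in each list, where 0.884% of all genes were called. Podn, a small leucine-rich proteoglycan of the matrix, rose from 43.4 and 36.1 CPM to 89.7 and 92.3 CPM (log2 fold change 1.20, SE 0.14, edgeR adjusted p = 0.0413). Dcn and Bgn, the abundant proteoglycans of type I fibrils, had -0.31 and 0.04, and Lum had -1.17 with 31.7 CPM in IEC+/+ replicate 1 and 8.12 to 13.7 CPM elsewhere. Itga2, the integrin chain by which epithelial cells bind collagen, fell from 76.9 and 76.7 CPM to 42.9 and 41.3 CPM (-0.87, SE 0.11, edgeR adjusted p = 0.0470). Simple epithelial markers had lower means in IEC-/- for 9 of 9, with 1 called (Krt20) and a median of -0.76, and their part was not tested. The receptors Itgb1 and Ddr1 had -0.10 and -0.06, and the inhibitory leukocyte receptor Lair1 had 5.48 and 5.90 CPM against 10.6 and 11.9 CPM (0.98, edgeR adjusted p = 0.147). Leukocyte markers summed to 534 and 480 CPM against 980 and 684 CPM, with 6 of 6 means higher in IEC-/- (median 0.51) and 0 called. Lyz2 alone gave 396 and 349 CPM against 797 and 504 CPM of these sums. Cd3e, Cd79a and Csf1r overlapped between the groups, and Cd79a had 5.36 and 7.42 CPM against 2.70 and 19.5 CPM. At an unadjusted p under 0.05, 3 of the 6 leukocyte markers were higher, where 7.50% of all genes tested were. The part of leukocytes in the Lair1 level was not tested.

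Of 15 basement membrane partners tested 0 passed, with 6 higher and 9 lower means in IEC-/- and a median of -0.09. At an unadjusted p under 0.05, 1 was higher and 2 were lower, where 7.50% and 9.12% of all genes tested were. Lamb2, a laminin chain, had 73.6 and 66.0 CPM against 120 and 105 CPM (0.69, SE 0.13, edgeR adjusted p = 0.0956), and Lama5 had 0.26. Of 8 collagen-degrading proteases 0 passed. Mmp14 had 0.35, Mmp9 -0.71 and Ctsb 0.01. Of 11 genes of TGF-beta signalling and matrix response 0 passed. At an unadjusted p under 0.05, 3 were lower and 0 higher, where 9.12% and 7.50% of all genes tested were. Ccn2, a matricellular target of that pathway, had 68.0 and 71.0 CPM against 46.1 and 48.5 CPM (-0.56, SE 0.11, edgeR adjusted p = 0.103), while Sparc and Fn1 had -0.35 and 0.19.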

How the data were processed

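Read counts per gene symbol, 1 file per library, were used as deposited by the authors, with no normalization. TopHat, limma, edgeR and the mm10 build appear in the submitters' processing notes, without roles. The sources used here do not give the counting tool, annotation or strand use. Titles gave the groups. The comparison used edgeR 4.0.16 under R 4.3.3 (TMM factors 0.955 to 1.05, default expression filter, quasi-likelihood F-test, no other term), which kept 16637 of 26214 symbols. Benjamini-Hochberg adjustment ran over those genes, and called means an adjusted p under 0.05. The biological coefficient of variation, common to all genes, was 0.248. Standard errors were derived from the F statistic, and intervals cover 95% and only the spread between these libraries. DESeq2 1.42.0, the edgeR exact test, limma-voom (limma 3.58.1), other scalings, no filter, a replicate block and leaving out each library were alternatives. The tests were checked on simulated counts.

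Members are all symbols of the stated form, in 9 classes. The members and the lists of 89 companion and 75 marker genes were chosen with earlier results of these data known. Full values were given for the member of each class with the smallest p, the one with the highest level per coding length, and trimer partners. Other members are given by range or as class extremes, and those with full values outside this rule (among them Col1a1, Col1a2, Col5a1, Col5a3, Col9a3, Col14a1, Col15a1 and Col17a1) were chosen after their values were seen. Companion genes named are those called, the 2 with the smallest p and the 2 with the highest CPM of each list, except some that are not reported here. Positions and upstream windows are from RefSeq on GRCm38.p6, and coding lengths (the longest coding sequence of a gene) and exons from GENCODE vM21 on GRCm38, the assembly also called mm10. All 44 members matched by symbol. Promoter letters were available for 35. Gene sets were described by counts, with no set test.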

Additional observations from a re-analysis of the deposited data

How the results depend on the processing

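No collagen was called with RLE scaling, total counts only, no filter, the edgeR exact test, limma-voom or the replicate block. The count over all genes was 83 with total counts only, 376 with no filter, 1303 with DESeq2, 869 with the exact test and 78 with limma-voom. DESeq2 called 1 collagen, Col23a1. With a library left out, 0 to 2 collagens and 0 to 729 genes were called by edgeR. Without IEC+/+ replicate 1 or replicate 2, 0 genes were called, with 1384 and 1754 at an unadjusted p under 0.05, of which 1 and 9 were collagens. The labels do not pair the libraries by replicate number. Deviations from the group mean correlated at 0.160 over 16637 genes between same-numbered libraries. With 2 libraries a group this value does not decide whether they are paired. With replicate numbers as a block, 211 genes and 0 collagens were called.

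Medians of log2 fold changes with a library left out ranged from -0.46 to 0.11 for all collagens, -0.60 to -0.015 for fibrillar, -1.42 to 1.17 for types VIII and X and 0.35 to 1.52 for transmembrane genes. The type VIII and X median was -1.36 by limma-voom. With total counts only, the log2 ratio of summed CPM was 0.29 for FACIT and 0.98 for Col28a1 with Col26a1.

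Some log2 fold changes near 0 or resting on a library turned. With total counts only these were Col13a1 0.092, Col20a1 0.047, Col4a1 0.093 and Col4a2 0.068. By limma-voom they were Col12a1 -0.00118, Col22a1 -0.064 and Col8a2 -1.36, and in the block Col12a1 -0.000241, Col22a1 -0.040, Col6a5 -0.011 and Col8a2 -0.059. With a library left out the ranges were -0.70 to 0.021 (Col1a2), -0.67 to 1.51 (Col2a1), -0.86 to 0.0084 (Col3a1), -0.17 to 0.11 (Col4a1), -0.11 to 0.012 (Col4a2), -0.13 to 1.64 (Col4a3), -0.35 to 0.16 (Col5a2) and -0.84 to 0.21 (Col6a1). They were -1.05 to 0.15 (Col6a2), -0.80 to 0.11 (Col6a3), -0.94 to 0.17 (Col6a4), -1.24 to 1.10 (Col6a5), -0.85 to 1.16 (Col7a1), -0.62 to 1.17 (Col8a1) and -6.77 to 2.00 (Col8a2). The others were -0.21 to 0.19 (Col12a1), -0.37 to 0.26 (Col13a1), -0.43 to 0.44 (Col20a1) and -1.15 to 0.95 (Col22a1). Beyond what leaving out a library or changing the scale does by construction, the cause was not tested. With 2 libraries a group, small differences were not detectable, and larger ones could also go uncalled. The simple epithelial marker Cdx2, with a log2 fold change of -1.95 and no overlap, was not called (edgeR adjusted p = 0.0986). A missing call thus does not show equal levels.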
